A study of Mus musculus with 15 samples.

Results

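The control ventricles of 2 mouse lines were compared with each other, without any deletion in either arm: 3 libraries labelled PAS control against 4 labelled CDS control, 7 of the 15 libraries of the series. The members were chosen by their labels alone. Both lines were made to remove Atf4 with Cre recombinase. In the CDS line, loxP sites flank exons 2 and 3 of Atf4 and leave its polyadenylation signal in place, and in the PAS line they flank that signal. Each line was crossed with Xmlc2-Cre mice, whose Cre is active in cardiomyocytes, to obtain the knockout embryos. The genotype label of all 7 libraries used here is only "Control", so whether these embryos carried loxP sites or Cre is not given in the sources used here. All 7 came from untreated embryos of strain C57BL/6 at embryonic day 11.5, with the same batch label, and the tissue is labelled as ventricular heart. The 4 PAS knockout and 4 CDS knockout libraries served as other libraries of the same lines.

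A ventricle at this age is mostly cardiomyocytes that still divide, with endocardium, epicardium, cushion mesenchyme and blood. A processed pseudogene is a copy of a messenger RNA pasted back into the genome, usually without introns and often nearly identical in sequence to its coding gene. Nuclear genes of the respiratory chain encode subunits of complexes I to V of oxidative phosphorylation, some of which also contain subunits encoded in the mitochondrial genome.

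Each library was one RNA-seq sample with 22623499 to 27041436 counted fragments in the PAS controls and 30376847 to 46472141 in the CDS controls. Every CDS control was thus deeper than every PAS control, and the files of the 2 lines were counted in separate runs, so line, depth and counting run cannot be told apart. Sarcomere genes summed to between 55419 and 61054 CPM (counts scaled to a common library total) in the 7 libraries, with the groups overlapping, whereas 11 neuronal markers together reached 33.5 to 44.3 CPM (124.0 to 135.7 CPM with Hand2, which heart cells also express). In bulk tissue fewer cells of a type and less RNA per cell cannot be told apart. The CDS controls fell into 2 pairs: the counts of replicates 1 and 2, and of replicates 3 and 4, differed least (chi-square per degree of freedom 5.02 and 3.38, against 6.25 to 10.7 for the other 4 pairs). Erythroid genes summed to 3097 and 4343 CPM in CDS controls 1 and 2, to 1986 and 2263 CPM in 3 and 4, and to 3776, 2528 and 1447 CPM in the PAS controls. No pair of replicates was within sampling noise.

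Atf4 (ENSMUSG00000042406.9, chromosome 15, 80139385 to 80141742 on GRCm39), the targeted gene, encodes a transcription factor that acts in the integrated stress response. It stood at 98.9, 92.2 and 100.1 CPM in the PAS controls and at 113.9, 111.7, 116.4 and 115.2 CPM in the CDS controls. All 3 PAS controls lay below all 4 CDS controls. The log2 difference was -0.24 ± 0.06 (SE; n = 3 and 4) and did not pass the threshold of 0.05 (Benjamini-Hochberg adjusted p by edgeR's quasi-likelihood test = 0.107), although it passed with DESeq2 (adjusted p = 0.0372). Of 36 genes annotated within 250 kb of Atf4, 13 were tested and 0 were called, and among 782 tested genes of chromosome 15 there were also 0 calls. Mief1, whose product acts in mitochondrial fission, differed by a log2 value of 0.11 ± 0.05, and Rps19bp1, whose product binds a ribosomal protein, by 0.00 ± 0.09. Lists of genes downstream of Atf4 had 0 calls as well: their median log2 differences were -0.01 for 20 aminoacyl-tRNA synthetases and -0.01 for 18 genes of amino acid synthesis and one-carbon metabolism, against 0.00 over all 20269 genes tested.

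Few genes separated the 2 groups of controls. Of 20269 genes tested, 29 were called, which is 0.143%, with 7 higher and 22 lower in PAS controls (1945 genes had an unadjusted p under 0.05). By class, 12 were protein-coding genes, 11 were pseudogenes, 2 belonged to the mitochondrial genome, 1 was a long noncoding RNA and 3 had an identifier with no class in the annotation used here. As shares of the genes tested, that was 0.0834% of 14384 protein-coding genes and 1.62% of 680 pseudogenes. The called share was 0.0345% for higher and 0.109% for lower genes. No chromosome held more than 4 calls (chromosome 13). In none of the 29 called genes did the values of the 2 groups overlap. Among all genes tested, 5.16% had every PAS control below every CDS control and 4.3% had every PAS control above.

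Protein-coding genes came first in the comparison, and 9 of the 12 called were lower in PAS controls (0.0626% of protein-coding genes) and 3 higher (0.0209%). Of those 9, 6 encode subunits of the respiratory chain: Ndufb3 and Ndufa4, listed here under complex I although Ndufa4 is now also assigned to complex IV, Uqcrb of complex III, and Cox8a, Cox5b and Cox6a2 of complex IV. The other 3 were Rps27, which codes for a protein of the small ribosomal subunit, Glrx5, a mitochondrial glutaredoxin of iron-sulfur cluster assembly, and Cenpw, a centromere protein. The 3 higher genes were Tmem100, Anp32b, a histone chaperone, and Pik3r2, a regulatory subunit of phosphoinositide 3-kinase. Apart from Tmem100, at 1.69 times the CDS mean, the ratios of PAS to CDS means ranged from 0.749 for Cenpw to 1.21 for Anp32b.

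**Figure D1:**
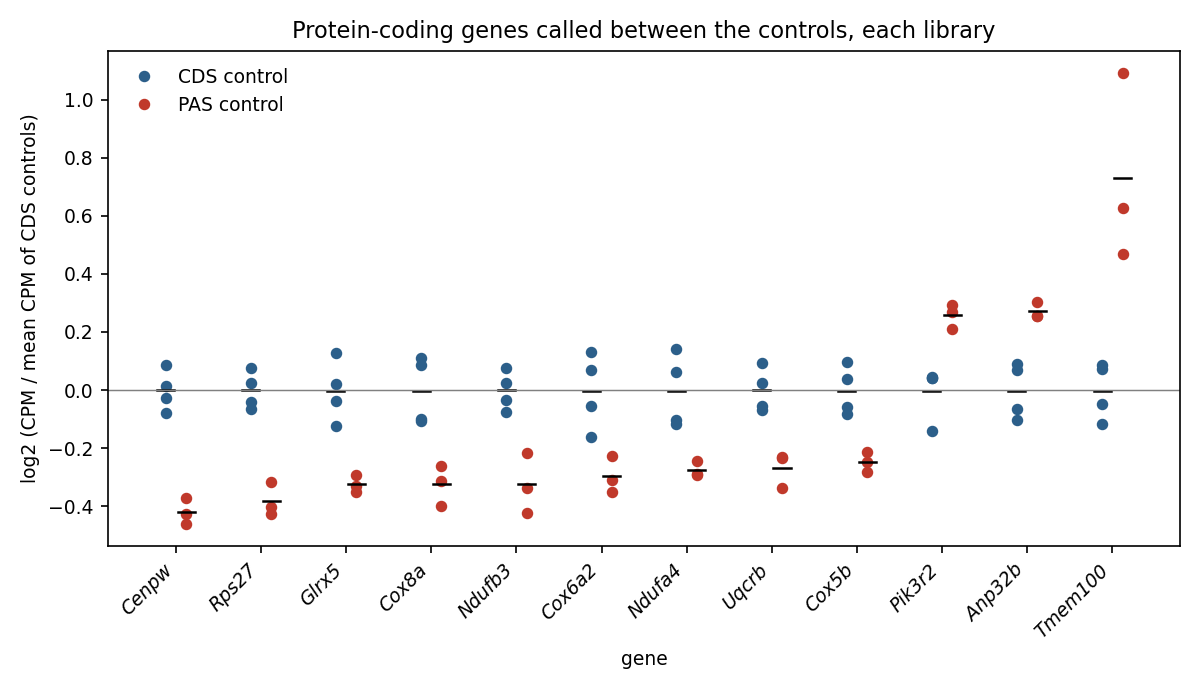
Level of each protein-coding gene called, as log2 of CPM over the mean CPM of the 4 CDS controls (vertical axis), in the CDS controls (blue) and PAS controls (red), with black bars for group means. The 3 PAS controls lie outside the range of the CDS controls for each of the 12 genes, by most for Tmem100.

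Rps27 (ENSMUSG00000090733.7, chromosome 3, 90119829 to 90120958) had the smallest adjusted p of these. It measured 199.8, 215.4 and 203.0 CPM in PAS controls and 282.9, 273.1, 261.2 and 256.7 CPM in CDS controls. The lowest CDS control was well above the highest PAS control. Its log2 difference was -0.38 ± 0.05 (SE, n = 3 and 4; Benjamini-Hochberg adjusted p by edgeR's quasi-likelihood test = 0.000954). In the knockout libraries the same line difference was -0.51 ± 0.05 (adjusted p = 1.14e-06 by the same edgeR test), with 175.9 to 198.3 CPM in PAS knockouts and 253.1 to 288.8 CPM in CDS knockouts. Of 83 cytosolic ribosomal protein genes tested, Rps27 was the 1 called, and 58 were negative with a median of -0.04. Rps29 and Rps28, which also code for proteins of the small subunit and were chosen after their values were seen, measured -0.34 ± 0.07 and -0.27 ± 0.06, with adjusted p = 0.0686 and 0.0808 by edgeR and 0.00175 and 0.0141 by DESeq2.

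Cox8a (ENSMUSG00000035885.6, chromosome 19, 7192518 to 7194981), a small subunit of cytochrome c oxidase, measured 244.3, 259.0 and 268.8 CPM in PAS controls and 341.4, 347.3, 300.3 and 298.7 CPM in CDS controls. The groups did not overlap, and CDS controls 3 and 4 were nearer to the PAS controls than 1 and 2. The log2 difference was -0.32 ± 0.05 (edgeR, adjusted p = 0.00617). Ndufb3 measured 40.2 ± 2.86 CPM (SD, n = 3) against 50.2 ± 2.29 CPM (SD, n = 4), a log2 difference of -0.32 ± 0.05 (edgeR, adjusted p = 0.00432). For Cox5b the PAS controls gave 240.1, 234.7 and 246.0 CPM and the CDS controls 292.6, 304.9, 274.2 and 269.5 CPM, a log2 difference of -0.25 ± 0.04 (edgeR, adjusted p = 0.00856). Cox6a2, the heart and muscle form of its subunit, gave -0.30 ± 0.06, Uqcrb -0.27 ± 0.05 and Ndufa4 -0.27 ± 0.05 on the log2 scale.

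Across the 75 nuclear genes of the respiratory chain, 6 were called lower and 0 higher, where 0.109% of all genes tested were called lower. Negative values were found in 70 of the 75, against 48.7% of all genes tested, with a median of -0.13 against 0.00. In 25 of the 75 (33.3%) every PAS control was below every CDS control, against 5.16% of all genes tested. In 0 every PAS control was above, against 4.3% of all genes tested. By complex, the medians were -0.14 for 34 genes of complex I, -0.11 for 4 of complex II, -0.13 for 9 of complex III, -0.21 for 13 of complex IV and -0.09 for 15 of complex V. Complex IV held 3 of the 6 calls, and in 8 of its 13 genes (61.5%) every PAS control was below every CDS control. The members' summed level was 15527, 15138 and 15543 CPM in PAS controls and 17413, 17566, 15639 and 15762 CPM in CDS controls. These sums did not overlap, but CDS control 3 exceeded the highest PAS control by little, and an exact two-sided permutation test gave p = 0.0571, the smallest that 3 against 4 libraries can give (adjusted p = 0.266 over 14 sums).

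**Figure D2:**
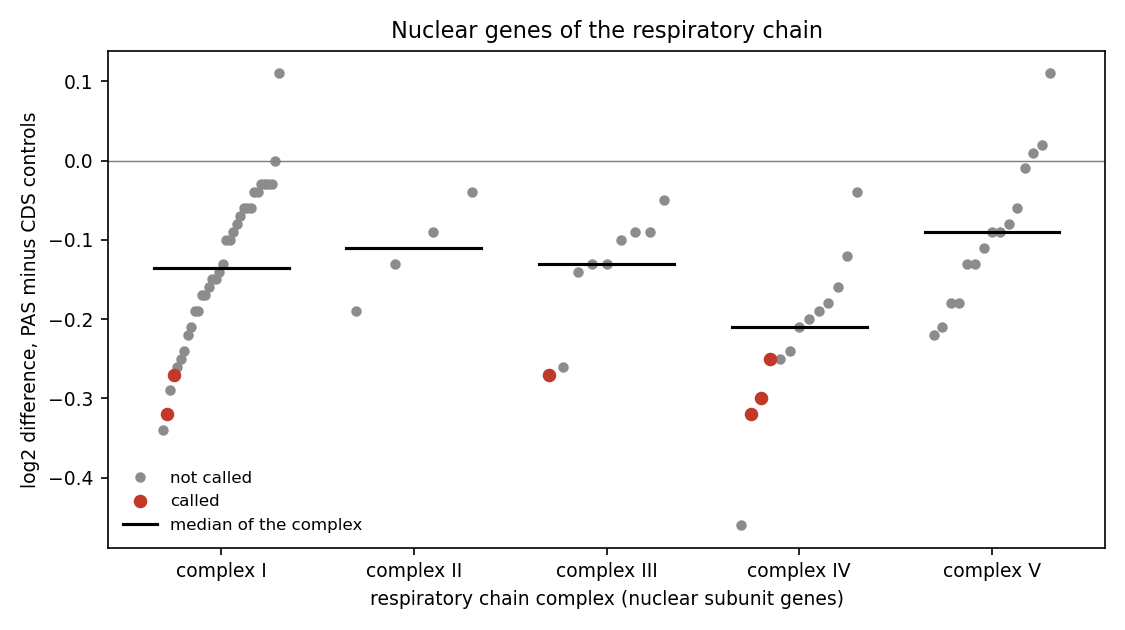
Log2 difference between PAS and CDS controls (vertical axis) for each nuclear gene of respiratory chain complexes I to V, with called genes in red and the median of each complex as a black bar. Of the 75 genes, 70 lie below 0, and the lowest median is that of complex IV (-0.21).

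The other mitochondrial lists had medians nearer to 0. Of 77 genes for mitochondrial ribosomal proteins, 0 were called, with a median of -0.05. The direction was nonetheless shared: 63 (81.8%) were negative, against 48.7% of all genes tested. In 13 (16.9%) every PAS control was below every CDS control, against 5.16% of all genes tested. Most members of the respiratory chain list were short by coding transcript length, the median over a gene's annotated coding transcripts. This median can lie far below the exon length, as for Ndufs1 (651 against 8086 bases). Genes of like length by this measure differed less. From 0.5 to 1 kb the 45 members had a median log2 difference of -0.15 and all 2238 protein-coding genes -0.02. From 1 to 2 kb the 15 members had -0.10 and all 3870 genes 0.00. The members were also more abundant, with medians of 117.8 and 245.7 CPM in these bins against 25.5 and 18.2 CPM. The part of abundance in this difference was not tested.

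Tmem100 (ENSMUSG00000069763.4, chromosome 11, 89921174 to 89927334), a membrane protein of arterial endothelium and endocardium, had the largest rise among the 12 protein-coding genes called. It stood at 37.9, 27.5 and 24.6 CPM in PAS controls and at 18.9, 18.7, 16.4 and 17.2 CPM in CDS controls. PAS control 1 was highest, and all 3 were above the CDS controls. The log2 difference was 0.76 ± 0.12 (SE, n = 3 and 4; Benjamini-Hochberg adjusted p by edgeR's quasi-likelihood test = 0.00764). Without PAS control 1 it was 0.55, still called (edgeR, adjusted p = 0.0216), but in a fit of the 7 control libraries alone it was not (adjusted p = 0.164). The knockouts lay below every PAS control, with 15.6 to 18.5 CPM in CDS knockouts and 17.6, 20, 19.3 and 16.0 CPM in PAS knockouts 1 to 4. PAS knockouts 2 and 3 were above every CDS control, and the line difference between knockouts was 0.09 ± 0.11. The difference between these 2 line differences did not pass (log2 -0.67; edgeR, adjusted p = 0.995). Of 16 endothelial markers Tmem100 was the 1 called. The median of the list was -0.07 with 11 negative, and its summed level was 2068 to 2412 CPM in PAS controls and 2335 to 2445 CPM in CDS controls.

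Anp32b measured 258.9, 258.8 and 267.8 CPM in PAS controls against 207.4, 202.2, 230.8 and 227.7 CPM in CDS controls (log2 0.27 ± 0.05; edgeR, adjusted p = 0.0132). In Pik3r2 the values were 47.1, 44.5 and 46.3 CPM against 39.6, 34.9, 39.7 and 39.6 CPM (log2 0.26 ± 0.05; edgeR, adjusted p = 0.034). CDS control 2 was the low library of that gene, and its call was lost without any 1 of 5 of the 7 libraries. Anp32b lost its call without any 1 of 4. Cenpw differed by a log2 value of -0.42 ± 0.07 and Glrx5 by -0.32 ± 0.05 (edgeR, adjusted p = 0.00764 and 0.0068). Of the 12 protein-coding genes, Rps27 and Tmem100 kept their calls in all 7 fits that left out 1 control library. The number called ranged over these fits from 5 without PAS control 1 and 6 without CDS control 1 to 21 without PAS control 3, 24 without CDS control 3 and 26 without CDS control 4. The 7 control libraries alone gave 1 call among protein-coding genes, Rps27 (edgeR, adjusted p = 0.00965), and DESeq2 on all 15 gave 69.

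Exon length, the summed length of all annotated exons of a gene, went with the direction of the small differences. Among protein-coding genes under 1 kb, 4 of 265 were called lower and 0 higher (1.51% called, against 0.0834% of all protein-coding genes). These 4 are the respiratory chain genes Cox8a, Cox6a2, Ndufb3 and Uqcrb given above, so the calls by length and by list are not separate results. Ndufa4 and Cox5b are among the lower calls from 1 to 2 kb. From 1 to 2 kb there were 3 lower and 2 higher of 1518, from 2 to 4 kb 1 lower of 4398, from 4 to 8 kb 1 lower and 1 higher of 5562, and 0 of 2641 at 8 kb and over. The median log2 difference went from -0.09 under 1 kb through -0.03, 0.00 and 0.01 to 0.02 at 8 kb and over. Negative values made up 67.2% of the shortest bin and 40.9% of the longest. Every PAS control lay below every CDS control in 15.1% of genes under 1 kb and in 3.1% of those of 8 kb and over, against 5.06% of all protein-coding genes. Across the 14384 genes, Spearman's rho of log2 difference and exon length was 0.11, a description across genes, which are not independent replicates.

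Per library the trend was also present in part of the CDS controls. The median of genes under 1 kb minus that of genes of 8 kb and over, each against the mean of the CDS controls, was -0.060, -0.102 and -0.116 on the log2 scale in the PAS controls. CDS controls 3 and 4 gave -0.075 and -0.077, within that range, and CDS controls 1 and 2 gave 0.068 and 0.081. The groups therefore overlapped, and the difference between group means (-0.09 against 0.00) stood beside a pooled SD of 0.07 within groups. In the knockout libraries, which do not enter that difference, the PAS line was lower throughout, with -0.084, -0.110, -0.162 and -0.161 against -0.003, -0.004, -0.001 and 0.005 in the CDS line. The summed level of protein-coding genes under 1 kb was 14529, 13326 and 11594 CPM in PAS controls and 14934, 16135, 12642 and 12969 CPM in CDS controls, which overlapped (exact two-sided permutation p = 0.457). Like the erythroid sums given above, it was highest in CDS control 2 and lowest in PAS control 3. The 2 sums share members, such as the globin genes Hbb-y (633 bases) and Hba-x (938 bases). The part of blood in the trend was not tested. At 10 CPM and over, 99 of 120 genes under 1 kb were negative, with a median of -0.11.

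**Figure D3:**
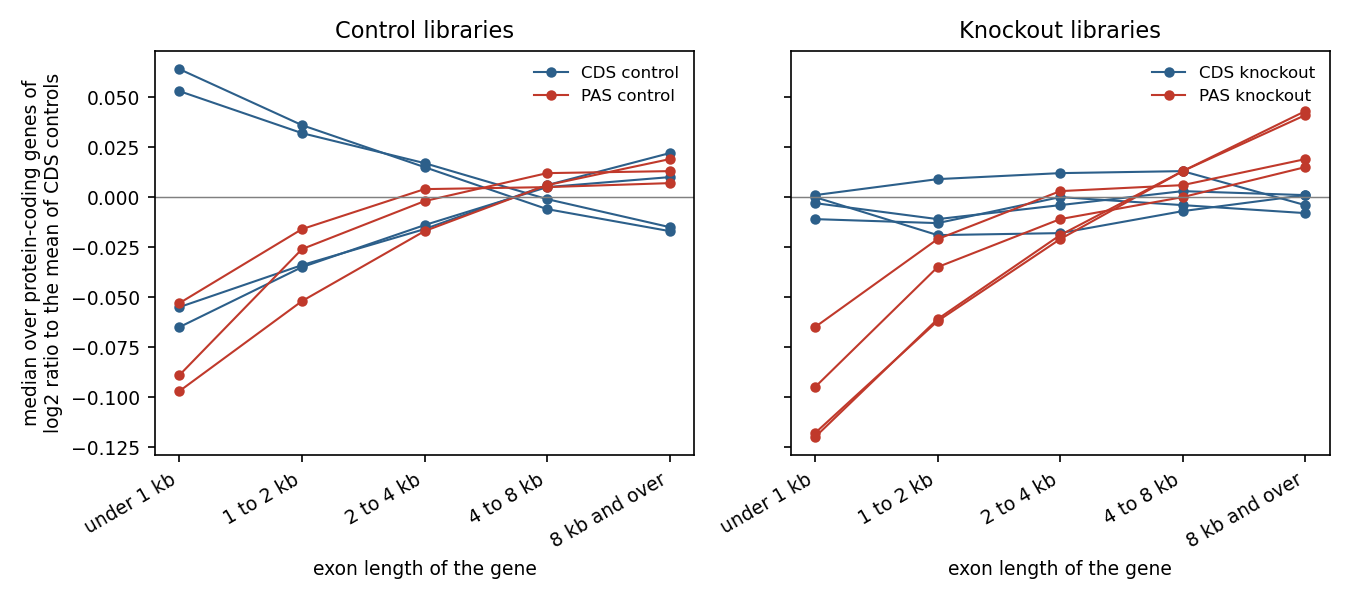
Median over protein-coding genes of the log2 ratio to the mean of the CDS controls (vertical axis) by exon length of the gene (horizontal axis), 1 line per library, for controls (left) and knockouts (right), CDS line in blue and PAS line in red. Among controls, CDS controls 3 and 4 follow the PAS controls, while the knockouts of the 2 lines are apart under 1 kb.

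With the coding transcript length, the median per gene defined above, in place of the merged exons, the order was kept and the range was smaller. Medians were -0.04 under 0.5 kb, -0.02 from 0.5 to 1 kb and 0.02 at 8 kb and over, with a rho of 0.12. The GC content of the coding transcripts had a rho of 0.01 with the difference between controls and -0.11 with that between knockouts. Long noncoding RNAs ran from -0.02 under 1 kb to 0.05 from 4 to 8 kb and 0.01 at 8 kb and over. Some lists of long genes lay slightly above 0, such as 373 zinc finger protein genes with a median of 0.03 (234 positive, 0 called) and 48 protocadherins, adhesion proteins of neural and other cells, with 0.05 (31 positive, 0 called).

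Pseudogenes had the lowest median of the classes. Of 680 tested, 10 were called lower and 1 higher in PAS controls, 63.4% were negative and the median log2 difference was -0.16. In 14.6% every PAS control was below every CDS control, against 5.16% of all genes. Small RNAs had 0 calls of 114 and a median of -0.12, and long noncoding RNAs 1 call of 2694 and 0.02. The called pseudogenes are copies of abundant messages. The stretches below, from GENCODE release 21, show such copies beside the coding sequence. Among the ungapped windows considered, those with the most differing bases were taken, so they are not typical of the copies. Each run is 120 bases, 5′ to 3′, and capitals mark bases of the copy that differ from the coding gene above it.
Npm1: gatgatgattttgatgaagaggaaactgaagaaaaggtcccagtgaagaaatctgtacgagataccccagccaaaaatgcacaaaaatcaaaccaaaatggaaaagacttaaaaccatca
Gm6477: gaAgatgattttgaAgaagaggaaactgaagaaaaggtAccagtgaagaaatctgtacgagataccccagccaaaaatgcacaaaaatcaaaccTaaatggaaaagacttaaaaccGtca
H3f3a: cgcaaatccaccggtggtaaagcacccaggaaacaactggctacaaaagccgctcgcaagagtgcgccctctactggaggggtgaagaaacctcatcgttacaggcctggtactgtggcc
H3f3a-ps1: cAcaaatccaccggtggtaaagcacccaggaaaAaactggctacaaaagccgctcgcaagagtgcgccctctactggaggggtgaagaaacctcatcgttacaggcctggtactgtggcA
Gm6421: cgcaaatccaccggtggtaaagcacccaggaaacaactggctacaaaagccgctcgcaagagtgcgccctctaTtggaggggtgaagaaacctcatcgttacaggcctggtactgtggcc
Rpl18: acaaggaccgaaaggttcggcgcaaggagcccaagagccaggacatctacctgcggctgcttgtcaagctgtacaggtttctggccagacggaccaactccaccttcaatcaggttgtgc
Rpl18-ps2: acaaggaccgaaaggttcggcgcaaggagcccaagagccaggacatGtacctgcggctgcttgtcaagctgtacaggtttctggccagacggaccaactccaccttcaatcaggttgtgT
In these windows Gm6477 differs from Npm1 at 5 bases, H3f3a-ps1 and Gm6421 from H3f3a at 3 and 1, and Rpl18-ps2 from Rpl18 at 2. Counted from the first base of the coding sequence, the change in Gm6421 is C98T, those in H3f3a-ps1 are G26A, C58A and C144A, and those in Rpl18-ps2 are C69G and C142T.

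Of the called pseudogenes, H3f3a-ps1 and Rpl18-ps2 were named by the rule and the other 9 were chosen after their values were seen. Gm6477 (ENSMUSG00000111877.2, chromosome 10, 39074534 to 39075297) is 96.0% identical to a transcript of Npm1, which codes for the nucleolar protein nucleophosmin. It measured 0.847, 0.874 and 0.789 CPM in PAS controls, from 23, 20 and 18 counts, and 5.82, 4.04, 4.51 and 4.96 CPM in CDS controls. The groups lay far apart. Its log2 difference was -2.52 ± 0.18 (SE, n = 3 and 4; Benjamini-Hochberg adjusted p by edgeR's quasi-likelihood test = 2.83e-08). Npm1 itself stood at 643 ± 43.5 CPM (SD, n = 3) in PAS controls and 673 ± 34.6 CPM (SD, n = 4) in CDS controls, so that log2 differed by -0.07 ± 0.05 (edgeR, adjusted p = 0.738).

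H3f3a codes for the replication-independent histone H3.3, and 2 of its copies were called. H3f3a-ps1 (ENSMUSG00000082284.2, chromosome X, 100868121 to 100868530; 98.3% identical) measured 1.33, 0.830 and 1.14 CPM in PAS controls and 4.22, 3.44, 3.38 and 3.00 CPM in CDS controls (log2 -1.66 ± 0.19; edgeR, adjusted p = 0.000138). Gm6421 (chromosome 13, 117494748 to 117495156; 99.3% identical) measured 1.95, 2.27 and 2.15 CPM against 3.86, 5.45, 3.86 and 3.77 CPM (log2 -0.99 ± 0.15; edgeR, adjusted p = 0.00356). Neither gene's groups overlapped, while H3f3a was at 224 ± 16.6 CPM (SD, n = 3) and 244 ± 14.8 CPM (SD, n = 4; log2 -0.13 ± 0.05; edgeR, adjusted p = 0.41).

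Rpl18-ps2 (ENSMUSG00000053173.13, chromosome 6, 128290320 to 128290886), a copy of the gene for a protein of the large ribosomal subunit, went the other way. It had 4.09, 4.15 and 3.37 CPM in PAS controls and 1.63, 1.25, 1.14 and 1.81 CPM in CDS controls (log2 1.40 ± 0.21; edgeR, adjusted p = 0.00356), with no overlap. Rpl18 differed by a log2 value of -0.01 ± 0.05. The other called pseudogenes were Gm13577, a copy of Hmgb1 (log2 -1.04 ± 0.12), Gm4045 of Atp5l (-1.62 ± 0.26), Gm7862 of Hmgn1 (-1.29 ± 0.21), Gm6451 of Nsa2 (-1.12 ± 0.17), Gm9625 of Rplp0 (-0.81 ± 0.16) and Gm12191 of Rpl30 (-0.69 ± 0.12). Gm14046, a copy of Ppia, had 0 counts in the 3 PAS controls and 43 over the 4 CDS controls, at least 7.24-fold lower against a floor of 3 counts over the group. The coding genes of the 11 differed by log2 values between -0.13 and 0.06. Of the 11 calls, 8 remained in all 7 fits that left out 1 control library, and the exceptions were Gm9625, Gm12191 and Gm14046.

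The difference followed identity to a coding gene. Of the 680 pseudogenes, 667 matched a protein-coding transcript of GENCODE release 21, and 614 matched over at least 80% of their length. Those under 90% identical had a median log2 difference of 0.05 (n = 107, 0 called), those from 90 to 95% -0.15 (n = 90, 0 called), those from 95 to 98% -0.29 (n = 138, 6 called) and those of 98% and over -0.29 (n = 279, 5 called). In the last 2 bins together, 72.9% of 417 were negative and every PAS control lay below every CDS control in 19.7%, against 1.87% of the least identical bin. Of the 244 tested coding genes that these 417 copy, the median was -0.01. The pattern was present at each length with enough genes: under 1 kb the median was 0.03 below 90% identity and -0.31 at 95% and over, and from 1 to 2 kb it was 0.05 and -0.28. It was also -0.29 in the 134 of these copies with at least 1 CPM.

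**Figure D4:**
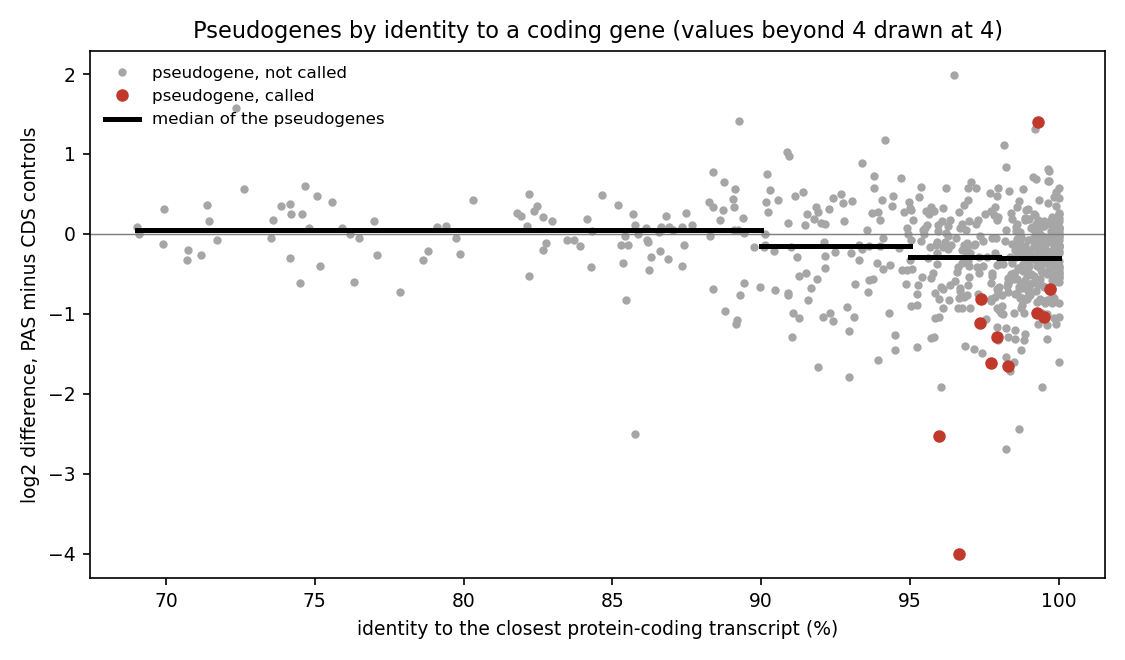
Log2 difference between PAS and CDS controls (vertical axis) of 614 pseudogenes against their identity to the closest protein-coding transcript (horizontal axis, percent), with called genes in red and the median of each identity bin as a black bar; Gm14046 is drawn at the lower end of the axis. Medians lie near 0 below 90% identity and at -0.29 at 95% and over.

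Library by library, the median of the 417 near-identical copies against the mean of the CDS controls was -0.156, -0.213 and -0.192 in PAS controls and 0.074, -0.003, -0.026 and -0.038 in CDS controls (log2 of CPM plus 0.5). These did not overlap, and unlike the exon length trend CDS controls 3 and 4 stayed with the other CDS controls. The knockouts gave -0.210, -0.231, -0.215 and -0.278 in the PAS line and -0.031, 0.006, 0.024 and -0.092 in the CDS line. Summed, the copies reached 611.8, 579.0 and 587.2 CPM in PAS controls and 741.5, 695.0, 665.8 and 657.2 CPM in CDS controls, with means in the ratio 0.859 (exact two-sided permutation p = 0.0571, adjusted p = 0.266). Copies under 90% identical summed to 237 ± 4.19 CPM (SD, n = 3) and 239 ± 2.77 CPM (SD, n = 4), which overlapped (exact permutation p = 0.629). With all 7 libraries thinned to the depth of the shallowest, the median of the near-identical copies was -0.335. Which aligner placed the fragments of such copies, and with which setting, is not given in the sources used here, and its part was not tested.

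The mitochondrial genome held 2 calls among 26 genes. mt-Co3, which codes for a core subunit of complex IV, measured 2.73, 2.27 and 3.24 CPM in PAS controls and 1.73, 0.971, 0.965 and 1.12 CPM in CDS controls (log2 1.21 ± 0.20; edgeR, adjusted p = 0.0068). Its groups did not overlap. Its level is far below that of mt-Co1, another core subunit of the same complex transcribed from the same strand, at 13517 CPM in PAS controls and 14399 CPM in CDS controls. Its neighbour mt-Atp6 was also low, at 1.62 and 1.26 CPM. These are counts per gene, not per length. mt-Tp, a transfer RNA gene on the other strand, measured 21.1, 24.1 and 25.6 CPM against 39.8, 43.7, 36.3 and 36.1 CPM (log2 -0.72 ± 0.11; edgeR, adjusted p = 0.0081). Counting ignored strand, so fragments from the 2 strands cannot be told apart.

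Gm47469, the 1 long noncoding RNA called, measured 16.7, 16.0 and 15.8 CPM in PAS controls and 12.4 to 13.2 CPM in CDS controls, without overlap (log2 0.34 ± 0.07; edgeR, adjusted p = 0.0261). Its call remained in 1 of the 7 fits that left out a control library. Of the 13 host genes of small nucleolar RNAs tested, 12 were negative with a median of -0.12 and 0 called, such as Gas5 at -0.18 ± 0.05 (edgeR, adjusted p = 0.227). Genes called without a class were 2 lower and 1 higher. Of the lower ones, ENSMUSG00000120928.1 had a log2 difference of -1.76 ± 0.25 (edgeR, adjusted p = 0.00153). The higher one, ENSMUSG00000121240.2, measured 1.66 ± 0.32 (edgeR, adjusted p = 0.0234), and its call remained in 1 of the 7 fits. It lies near Tmem100 on chromosome 11 (89962396 to 90021580), so these 2 calls may not be separate results. Between knockouts it was not called (log2 0.50; edgeR, adjusted p = 0.514).

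The knockout libraries of the 2 lines gave a second value of the line difference, from levels that do not enter the control difference. Both deletions enter this second value as well. Depth splits the knockouts as it does the controls, with 23682810 to 29315724 counted fragments in PAS knockouts and 31410559 to 43060454 in CDS knockouts. Line, depth and counting run therefore cannot be told apart here either, and a difference shared by controls and knockouts may belong to any of them. The 2 tests are not independent, because all 15 libraries set the gene filter and the estimate of the spread that both tests share. All 29 genes called between controls had the same sign between PAS and CDS knockouts, and 20 of the 29 were called there too (69%), among 237 calls in all, which is 1.17% of the genes tested. These 20 were 8.44% of the calls between knockouts. Without CDS knockout 3 the calls between knockouts numbered 134 (0.669% of the genes tested), of which 19, or 14.2%, were also among the 36 then called between controls. With all 15 libraries, 0.281% of all genes were called higher between knockouts and 0.888% lower. The 20 held 10 of the 11 pseudogenes and 7 of the 12 protein-coding genes, where 1.25% of protein-coding genes were called between knockouts (0.904% lower and 0.348% higher). Gm6477 gave -2.58 between knockouts, H3f3a-ps1 -1.59, Rpl18-ps2 1.38 and mt-Co3 0.97, all called, against -2.52, -1.66, 1.40 and 1.21 between controls. Of the protein-coding genes, Tmem100, Anp32b, Pik3r2, Cox6a2 and Cox5b were not called between knockouts, with log2 values of 0.09, 0.18, 0.05, -0.20 and -0.15. Within the respiratory chain, 64 of 75 genes were negative between knockouts and 17 were called lower. The median of this list was -0.09 there, against -0.13 between controls. Its summed levels overlapped, at 15021 to 16180 CPM in PAS knockouts and 15238 to 16720 CPM in CDS knockouts. The near-identical pseudogenes had a median of -0.38 there. None of the 29 had a called difference between the 2 line differences (edgeR, interaction contrast), whereas Atf4 did.

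**Figure D5:**
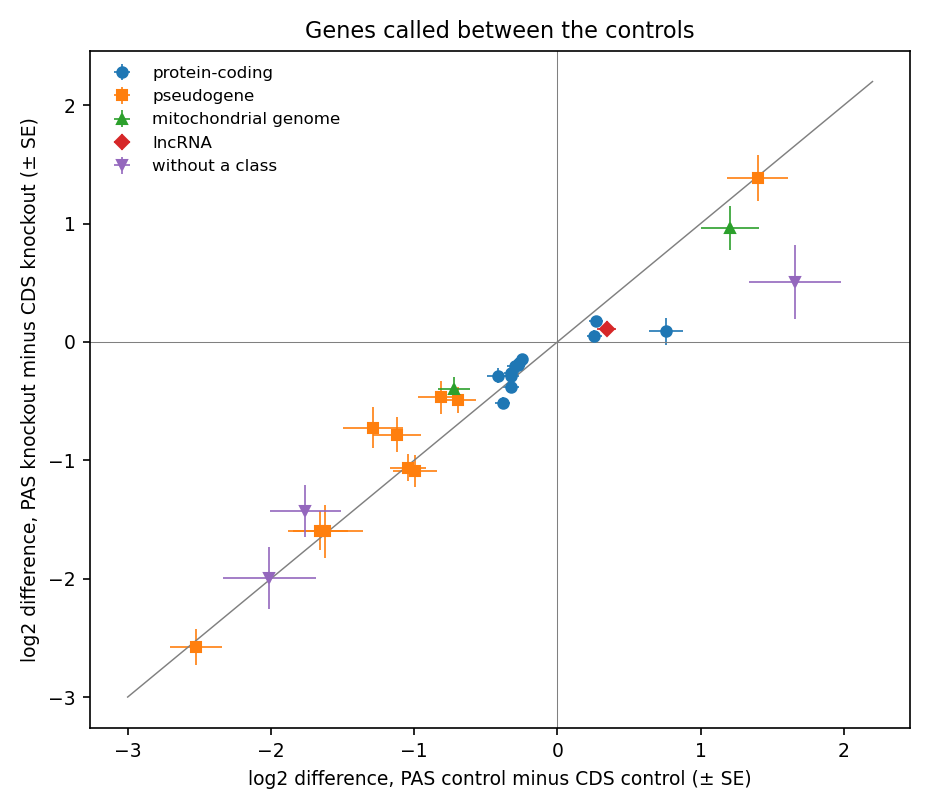
Log2 difference between the lines in control libraries (horizontal axis) and in knockout libraries (vertical axis), with SE bars, for genes called between controls, marked by class, with the line of equal values in grey. Gm14046, at 0 in the PAS controls, is left out. Gm6477, H3f3a-ps1 and Rpl18-ps2 lie close to the line, while Gm7862 (-1.29 and -0.72) and Tmem100 (0.76 and 0.09) lie nearer to 0 in the knockouts.

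Most groups of heart genes had no call. Among 28 sarcomere genes the median was -0.02, and Actc1 and Myh7, the most abundant, gave -0.06 ± 0.06 and -0.04 ± 0.06. The medians were -0.09 for 13 trabecular markers (Nppa -0.09 ± 0.13), 0.04 for 9 compact layer markers, 0.02 for 19 cardiac transcription factors and 0.01 for 13 epicardial markers. Of 14 cushion mesenchyme markers 13 were positive, with a median of 0.18 and 0 calls, and their sums overlapped: 4237, 4566 and 4507 CPM in PAS controls and 3533, 3909, 4307 and 4285 CPM in CDS controls. CDS controls 3 and 4 were again nearer to the PAS controls. Between knockouts the direction of this list was not kept, with a median of -0.04 and 9 of 14 negative. Of 22 mitosis genes 18 were positive (median 0.04) and of 22 DNA replication genes 17 (median 0.03), with 0 calls. Mki67, a marker of cycling cells, stood above all CDS controls in every PAS control (log2 0.16 ± 0.04; edgeR, adjusted p = 0.174), as did the replication helicase gene Mcm6 (0.17 ± 0.04; adjusted p = 0.0688). DESeq2 called both, with adjusted p = 0.0231 and 0.000142. Cholesterol synthesis (18 of 20 positive, median 0.06) and glycolysis and hypoxia genes (20 of 24 positive, median 0.07) also had 0 calls. Replication-dependent histones, whose messages lack a poly(A) tail, summed to 40.1 ± 5.5 CPM (SD, n = 3) and 42.4 ± 2.65 CPM (SD, n = 4).

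Ttr, which codes for the thyroid hormone carrier made in liver, yolk sac and choroid plexus, was far lower in every PAS control without passing the threshold in edgeR. It measured 35.2, 27.2, 11.2 and 26.6 CPM in CDS controls and 0.516, 0.743 and 0.263 CPM in PAS controls. The fitted log2 difference was -5.61 ± 1.41 (edgeR, adjusted p = 0.204; DESeq2, adjusted p = 2.17e-09). Between knockouts it was called, at -7.35 (edgeR, adjusted p = 0.0144). Enpp2, which makes lysophosphatidic acid and was picked once its values were known, had 16.4, 14.5, 6.16 and 13.1 CPM in CDS controls and 1.40, 0.786 and 1.49 CPM in PAS controls (edgeR, adjusted p = 0.311; DESeq2, adjusted p = 0.00163) and was called between knockouts at -4.70 (edgeR, adjusted p = 0.0315). Both genes were low in the same CDS control, the third. CDS knockouts 1 to 4 were uneven, with Ttr at 13.8, 17.6, 104.0 and 154.1 CPM and Enpp2 at 5.88, 7.94, 43.5 and 64.2 CPM. The size of the knockout differences therefore rests largely on replicates 3 and 4. PAS knockouts reached at most 0.55 CPM for Ttr and 1.4 CPM for Enpp2. The liver marker Afp was at 0.134 CPM in PAS controls and 0.326 CPM in CDS controls, and of 14 liver and yolk sac genes 5 were too low to test. A further 12 genes of choroid plexus, also chosen after these values, summed to 16.2, 16.1 and 12.1 CPM in PAS controls and to 18.6, 16.7, 15.1 and 17.8 CPM in CDS controls, which overlapped. Most of that sum was Prlr and Clic6. Of the 12, Sostdc1 and Tmem72 were lower in every PAS control, both near the floor. Sostdc1 had 0, 0 and 0.0875 CPM against 0.151 to 0.199 CPM. Tmem72 had 0.11, 0 and 0.0438 CPM against 0.226 to 0.281 CPM. In the other members the groups overlapped. Over all genes tested, 5.16% had every PAS control below every CDS control. The part of other tissue in the line difference was not tested.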

How the data were processed

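RNA-seq libraries of E11.5 ventricles were used. The files hold raw fragment counts per gene that the authors made with featureCounts 2.1.1 from exons in mouse GENCODE release 37 (GRCm39), with no strand option, per the file headers. HISAT2 2.2.1 and STAR 2.7.11b both appear in the submitters' processing notes, and which of them made these files is not given in the sources used here. The labels conflict on the RNA: the design text names ventricles and poly(A) selection, the extraction protocol cortical neurons and ribosomal RNA depletion. By the design text each genotype had 4 biological replicates; of the PAS controls, 3 are used.

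Names, classes and transcripts came from GENCODE release 21 by identifier (51536 of 78317 genes, 98.86% of counts). Where a symbol had several identifiers, the one with most counts was used. edgeR 4.0.16 (filterByExpr minimum count 10, TMM, robust quasi-likelihood) fitted all 15 libraries with 4 group means, leaving 11 residual degrees of freedom (biological coefficient of variation 7.44%). A gene was called where its Benjamini-Hochberg adjusted p lay under 0.05. A log2 difference is PAS minus CDS. Pseudogenes were matched to coding transcripts with blastn 2.17.0 (E-value 1e-20, same strand). Summed CPM were compared by exact two-sided permutation. The fit was tested on simulated data. Named genes were Atf4 and named genes within 250 kb, the 10 largest rises and falls among called protein-coding genes of at least 1 CPM without overlap, up to 3 each way per other class, up to 4 called members per list (or the 2 most abundant) and 2 per length bin and direction. The members and lists were chosen with earlier results of these data known. 36 lists were described, and the RNA polymerase III and RNase RNAs had 0 of 10 tested.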

Additional observations from a re-analysis of the deposited data

Results flagged for a closer look

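Dixon's test for 1 library apart from the rest was applied to 132 values, of named genes and summed levels, in the 4 CDS controls. Chance flags about 1 in 20, and the flags of this test given below are about as many as chance gives. CDS control 2 stood apart for Pik3r2 at 34.9 CPM (39.6 to 39.7 CPM in the other CDS controls), for the gap junction gene Gja1 at 624.5 CPM (545.9 to 554.4 CPM), for the macrophage receptor gene Csf1r at 13.7 CPM (7.35 to 8.35 CPM) and for Gm6421 at 5.45 CPM (3.77 to 3.86 CPM). CDS control 4 stood apart for Gm12191 at 9.04 CPM (7.17 to 7.47 CPM) and for Gm7862 at 2.48 CPM (1.96 to 2.00 CPM). For Atf4 the line difference between knockouts exceeded that between controls by 2.92 on the log2 scale (edgeR's interaction contrast, Benjamini-Hochberg adjusted p = 3.88e-17), where the knockouts carry different deletions of this gene.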

How the results depend on the processing

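The 29 calls kept their sign in every setting in which they could be fitted, while their number moved with the tool and the libraries. DESeq2 called 101 genes (69 protein-coding; 59 shared with the knockouts), and no filter on low counts gave 201 (149 protein-coding, 24 pseudogenes, 90 shared with the knockouts). The 7 controls alone gave 10 (1 and 6), depth thinned to the shallowest library 8 (1 and 4) and a minimum of 1.5-fold 17. A replicate block gave 5 (1 protein-coding, 3 pseudogenes): Gm6477, Gm13577, H3f3a-ps1, mt-Tp and Ttr, at an edgeR adjusted p of 3.37e-07 for Ttr. So 0 of the 12 protein-coding calls remained under the block, with Rps27 at 0.0999 and Tmem100 at 0.0917. Same-numbered controls did not deviate together (correlations 0.01, -0.15 and 0.10), so the numbers were not read as pairs. Scaling on protein-coding genes gave 34 calls, DESeq2 size factors 29, limma-voom 28 and, added after the data were seen, leaving out CDS knockout 3 gave 36 (and 134 between knockouts in place of 237). Leaving out 1 control library gave 15 to 43 calls in all, 5 to 26 protein-coding genes, 8 to 13 pseudogenes, and 12 to 32 calls shared with the knockouts. The fewest of each came without PAS control 1. The most came without CDS control 4, except for pseudogenes, with 13 without CDS control 3. The cause of these shifts was not tested.

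The difference between medians of the shortest and longest protein-coding genes was -0.107 and ranged from -0.125 to -0.061 over these left-out libraries; with coding transcript length it was -0.043. The median of near-identical pseudogenes was -0.294 and ranged from -0.343 without PAS control 1 to -0.233 without CDS control 1. Their summed level, a log2 ratio of -0.219, ranged from -0.243 to -0.183. Low counts limit the called pseudogenes, such as Gm4045 with 9 to 18 counts per PAS control.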
